A study of Homo sapiens with 5 samples.

Results

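LU-102 given alone was compared with mock treatment in MDA-MB-231 cells, gene by gene. Of the 4202 genes in the deposited table, 4193 reached a level of 1 in at least 1 of these libraries and were compared. They comprised 3907 mRNA genes, 62 short RNA genes (small nucleolar, small Cajal body, spliceosomal, 7SL, 7SK, RNase P, RNase MRP, Y and telomerase RNAs) and 224 other genes, which include long noncoding RNAs, pseudogenes, ribosomal RNA and symbols with no match in RefSeq. Of the 9 genes left out, LINC00537 was nearest the limit, with levels of 0.936 in mock and 0.981 with LU-102. COX18 was nearest inside it, at 1.0001 and 0.966.

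MDA-MB-231 is an established human line of triple-negative, mesenchymal-like breast cancer. The series holds 5 total RNA libraries, 1 per condition, each from cells of this line after 4 h: mock treatment, CGI-1746 (labelled a BTK inhibitor), LU-102 (labelled the submitters' own inhibitor), CGI-1746 + LU-102, and bortezomib, a proteasome inhibitor included as a control. The labels give no dose, no vehicle and no statement on separate cultures. Because LU-102 and mock each have 1 library, the differences carry no replicate error, and none between treatments was tested. The pair CGI-1746 + LU-102 against CGI-1746 shares no library with LU-102 against mock, and its values are given beside the first pair. The line's mesenchymal genes were present in both libraries: VIM, which encodes vimentin, was at 92.1 in mock and 82.3 with LU-102, AXL, a receptor tyrosine kinase, 17.7 and 17.1, and LGALS1, a galectin, 48.4 and 59.3. Genes on the list of epithelial and luminal genes were present as well, 6 of them among the genes compared. Of these, KRT18, a keratin gene, had 35.5 in mock and 33.9 with LU-102, and KRT19 12.07 and 11.97. No gene on the lists of blood cell or of endothelial and fibroblast markers was among the genes compared.

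LU-102 is known as a peptide vinyl sulfone that blocks the trypsin-like active site of the proteasome, the protease complex that degrades ubiquitin-tagged proteins. The proteasome consists of a 20S core, which holds the active sites, and a 19S regulatory particle, which recognises and unfolds substrates. Strong inhibition of the proteasome is known to induce heat shock genes through HSF1 and proteasome subunit genes through NFE2L1, also called NRF1.

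A level is the deposited expression signal, which behaved as reads per unit of gene length, scaled by a factor of each library. A difference is log2((level with LU-102 + 1)/(level in mock + 1)), positive where the gene was higher with LU-102. The pseudocount of 1 pulls the differences of genes with low levels towards 0. For short RNAs the reads themselves were recovered from the levels, and the ratio of reads per library factor was given an exact Clopper-Pearson interval at 95%, which covers counting error only. The factors were 59.4 for mock and 58.5 for LU-102 (level times base pairs per read). The total reads of the libraries are not known here.

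Differences between LU-102 and mock were small for nearly all mRNAs and larger for short RNAs. With the pseudocount of 1, no mRNA differed 2-fold, 5 mRNAs were at least 1.5-fold higher and none was as much lower. Of all 4193 genes, 0.405% were at least 1.5-fold higher (17 genes) and 0.0715% as much lower (3 genes). A smaller step, at least 25% higher or at least 20% lower on the same scale, was passed by 50 mRNAs upwards, which is 1.28% of those compared, and by 45 downwards, or 1.15%. Genes past that step are called higher or lower below. With median-of-ratios scaling of the libraries the split was 96 higher and 19 lower, and with scaling to equal summed mRNA levels it stayed within 1.5 times of that reported. Of the 62 short RNAs, 27 were higher by this measure (43.5%) and 6 lower (9.68%), 12 were at least 1.5-fold higher (19.4%) and 2 as much lower (3.23%), and 3 were 2-fold higher (4.84%) and none as much lower. The median difference was 0.29 for short RNAs, with 41 above 0 and 21 below, against -0.06 for mRNAs, of which 35.1% lay above 0. The other RNA genes had a median of -0.05. In bulk RNA a change in the RNA per cell and a change in the share of cells that make it cannot be told apart. With a pseudocount of 5 the short RNA median was 0.18.

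**Figure D1:**
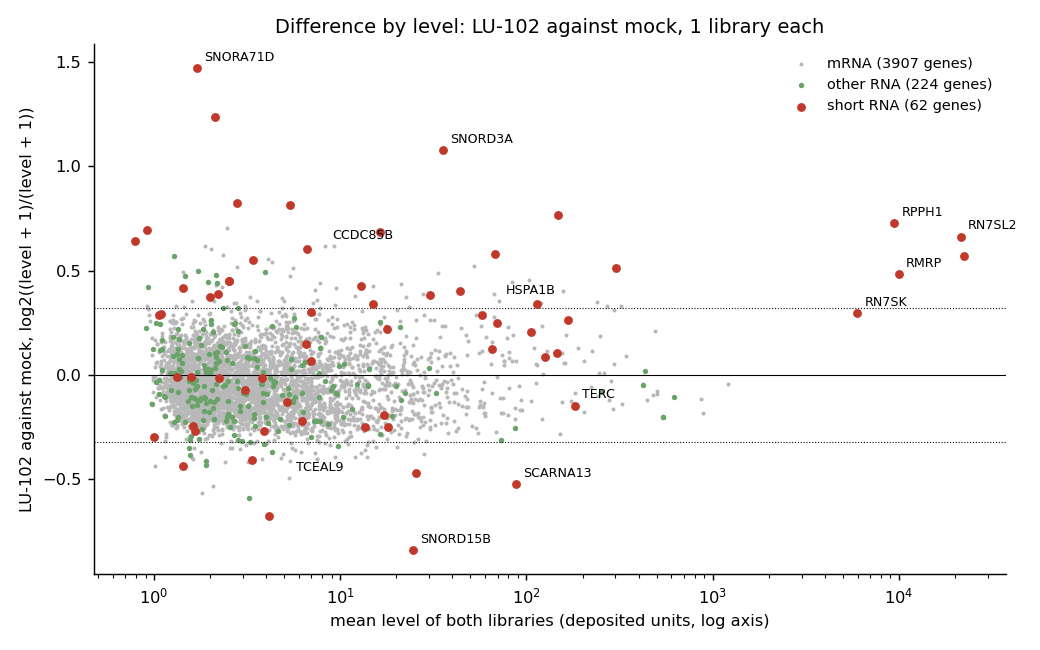
Difference between LU-102 and mock (y axis, log2 with a pseudocount of 1) against the mean level of both libraries (x axis, log scale) for 3907 mRNA genes (grey), 224 other genes (green) and 62 short RNAs (red). The dotted lines mark 25% higher and 20% lower. Most mRNAs lie between them, while SNORD3A, RPPH1 and RN7SL2 lie above and SNORD15B and SCARNA13 below.

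The short RNAs carried the largest part of both summed signals. The 7SL RNAs (RN7SL1, RN7SL2 and RN7SL3), the RNA scaffold of the signal recognition particle, together with RN7SK, RPPH1 and RMRP summed to a level of 83247 with LU-102 and 55550 in mock, a ratio of 1.499. All 6 were higher with LU-102, and their share of the sum over all genes was 66.0% against 56.0%. The remaining 56 short RNAs summed to 1988 with LU-102 and 1735 in mock, a ratio of 1.15. mRNAs held 29.5% of the summed level with LU-102 and 38.3% in mock, with sums of 37180 and 37978. These are shares of levels, in which short genes weigh more per read. With CGI-1746 present, the 6 abundant RNAs summed to 76749 with LU-102 and 57220 without it, a ratio of 1.34.

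Among RNAs with many reads, RN7SL3 had 948.5 reads with LU-102 and 547.5 in mock, a ratio of 1.71 (95% interval 1.53 to 1.90). RN7SL2 had a ratio of 1.58 (1.57 to 1.60) and RN7SL1 1.48 (1.47 to 1.497). The 7SL genes are near copies of each other: RN7SL1 is 98.3% identical to RN7SL2 and 97.7% to RN7SL3 in GENCODE 29, so how the authors' counting split reads among them is uncertain. RPPH1, the RNA of RNase P, which trims the 5′ ends of transfer RNA precursors, had 68629 reads with LU-102 and 40825.5 in mock, a ratio of 1.66 (1.64 to 1.68). RMRP, the RNA of the related RNase MRP, which acts in ribosomal RNA processing, had a ratio of 1.40 (1.38 to 1.42). RN7SK, which holds the elongation factor P-TEFb in an inactive complex, had 1.23 (1.21 to 1.246). With CGI-1746 present in both libraries the ratios were 1.36 for RN7SL3, 1.44 for RN7SL2, 1.35 for RN7SL1, 1.19 for RPPH1, 1.32 for RMRP and 1.248 for RN7SK. These intervals are narrow because they count reads only. The spread between separate cultures is unknown here.

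U3 small nucleolar RNA guides early cleavage of the ribosomal RNA precursor. Its gene SNORD3A stood highest among the short RNAs with at least 50 reads in both libraries together. SNORD3A (chr17:19188016-19188232, plus strand, GRCh38) had 82 reads in mock and 180 with LU-102, a ratio of 2.16 (1.66 to 2.85), at levels of 22.5 and 48.5. SNORD3D (chr17:19112420-19112636, minus strand) had 45 reads in mock and 75.5 with LU-102, a ratio of 1.65 (1.14 to 2.46). With CGI-1746 present, SNORD3A had 92.5 reads without LU-102 and 150.5 with it, a ratio of 1.63 (1.2497 to 2.14). SNORD3D had 48.5 and 68.5, a ratio of 1.41 (0.965 to 2.10). The sequences of both genes are shown because they differ at only 3 of 217 positions (98.6% identity), so that reads could be assigned to either. They come from GENCODE 29, 5′ to 3′, and the capitals mark the first TGATGA and the last CTGA, the letters of the C and D boxes that define this class.
SNORD3A: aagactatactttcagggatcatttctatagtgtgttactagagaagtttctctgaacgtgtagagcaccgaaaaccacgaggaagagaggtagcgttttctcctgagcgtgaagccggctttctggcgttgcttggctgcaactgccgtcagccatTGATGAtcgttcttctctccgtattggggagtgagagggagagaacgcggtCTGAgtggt
SNORD3D: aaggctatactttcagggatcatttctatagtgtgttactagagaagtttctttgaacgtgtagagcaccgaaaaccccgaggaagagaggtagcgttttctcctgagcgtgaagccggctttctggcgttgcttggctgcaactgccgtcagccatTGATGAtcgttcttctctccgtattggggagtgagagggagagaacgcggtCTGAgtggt

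Searched on the transcript's own strand, TGATGA occurs in 77.4% of the 288 SNORD transcripts of GENCODE 29 and CTGA in 98.3%. Bortezomib had far higher levels of both U3 genes, 868 for SNORD3A and 764 for SNORD3D, against 48.5 and 20.3 with LU-102. The bortezomib library differed widely in make-up, with a summed mRNA level of 12753 against 37978 in mock, which limits this comparison of levels. All 3 values of each gene (mock, LU-102 and bortezomib) stand in 1 library each.

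Small nucleolar RNAs of the H/ACA class, which guide pseudouridylation, had a median difference of 0.24 over 22 genes, with 7 at least 25% higher and 2 at least 20% lower, beside 27 of 62 short RNAs higher in all. Of the 7, SNORA73A alone had a counting interval above 1, and the other 6 had 1 to 10 reads in each library. The other C/D RNAs, which guide ribose methylation, had a median of 0.42 over 10 genes, with 7 higher and 1 lower. Of these 7, SNORD133 alone had an interval above 1, with 138 reads in mock and 186 with LU-102, a ratio of 1.33 (1.06 to 1.67). SNORD141A and SNORD141B have identical levels and count as 1 measurement. SNORA71D and SNORA71A, the remaining genes past 2-fold, rested on few reads: 1 in mock and 7 with LU-102 for SNORA71D, and 2 and 8 for SNORA71A. Their intervals, 0.887 to 311 and 0.787 to 38.1, hold 1. In the second pair SNORA71A went the other way, with 10 reads under CGI-1746 and 5 with LU-102 added. Their sequences, 83.1% identical, are shown as the members with the largest ratios. Both genes lie within SNHG17, a noncoding host gene (chr20:38427309-38427442 for SNORA71A and chr20:38433865-38433998 for SNORA71D, minus strand). The capitals mark the ACA at the 3′ end, which stands within the last 6 bases of 89.3% of 149 SNORA transcripts.
SNORA71A: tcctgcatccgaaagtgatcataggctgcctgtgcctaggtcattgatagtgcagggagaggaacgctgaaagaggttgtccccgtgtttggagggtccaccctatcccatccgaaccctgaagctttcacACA
SNORA71D: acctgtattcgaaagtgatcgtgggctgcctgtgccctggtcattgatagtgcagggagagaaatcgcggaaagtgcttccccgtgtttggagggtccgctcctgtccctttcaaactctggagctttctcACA

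Over all 62 short RNAs, the counting interval lay above 1 in 15 (24.2%) and below 1 in 4 (6.45%). Of the 15 above 1, 9 were also above 1 in the pair with CGI-1746, 5 had an interval that held 1 and RNVU1-7 was below it. RNVU1-7, a variant of the U1 spliceosomal RNA, had 1001.5 reads with LU-102 and 691 in mock, a ratio of 1.43 (1.30 to 1.58), and 0.874 (0.799 to 0.958) in the pair with CGI-1746. SCARNA10, a small Cajal body RNA of the class that guides modification of spliceosomal RNA, had 457 and 300 reads, a ratio of 1.502 (1.30 to 1.74), against 1.003 (0.862 to 1.17) in the second pair. The H/ACA RNAs SNORA73A and SNORA73B had intervals above 1 in both pairs, with ratios of 1.27 and 1.20 in the first. Of the other short RNAs past 1.5-fold, SNORD94 had 4 reads in mock and 9 with LU-102, SNORA40B 1 and 3, and RNVU1-6, a U1 variant, 14 and 23, all with intervals that held 1. SCARNA16, RNY1, SCARNA28 and SNORA74A, among the 8 lowest at a level of at least 5, had ratios of 0.867, 0.834, 0.832 and 0.828 with intervals that held 1. The 31 short RNAs with at least 50 reads had a median difference of 0.29, with 24 above 0, and the 31 with fewer reads also had 0.29, with 17 above 0.

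The 4 short RNAs whose interval lay below 1 were SNORD15B, SCARNA13, SCARNA7 and TERC. SNORD15B, a C/D RNA, had 78 reads in mock and 43 with LU-102, a ratio of 0.543 (0.366 to 0.799). With CGI-1746 present it had 53 reads without LU-102 and 83 with it, a ratio of 1.57 (1.10 to 2.25). The 4 levels were thus 31.7 in mock, 17.2 with LU-102, 21.4 with CGI-1746 and 33.5 with both, the lowest being LU-102 alone. SCARNA13 had 479.5 reads in mock and 336 with LU-102, a ratio of 0.691 (0.598 to 0.795), against 0.995 in the second pair. SCARNA7 had 0.711 (0.557 to 0.905) against 1.04. TERC, the template RNA of telomerase, had 1459 reads in mock and 1334 with LU-102, a ratio of 0.901 (0.836 to 0.972), and 1.20 (1.11 to 1.29) in the second pair.

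**Figure D2:**
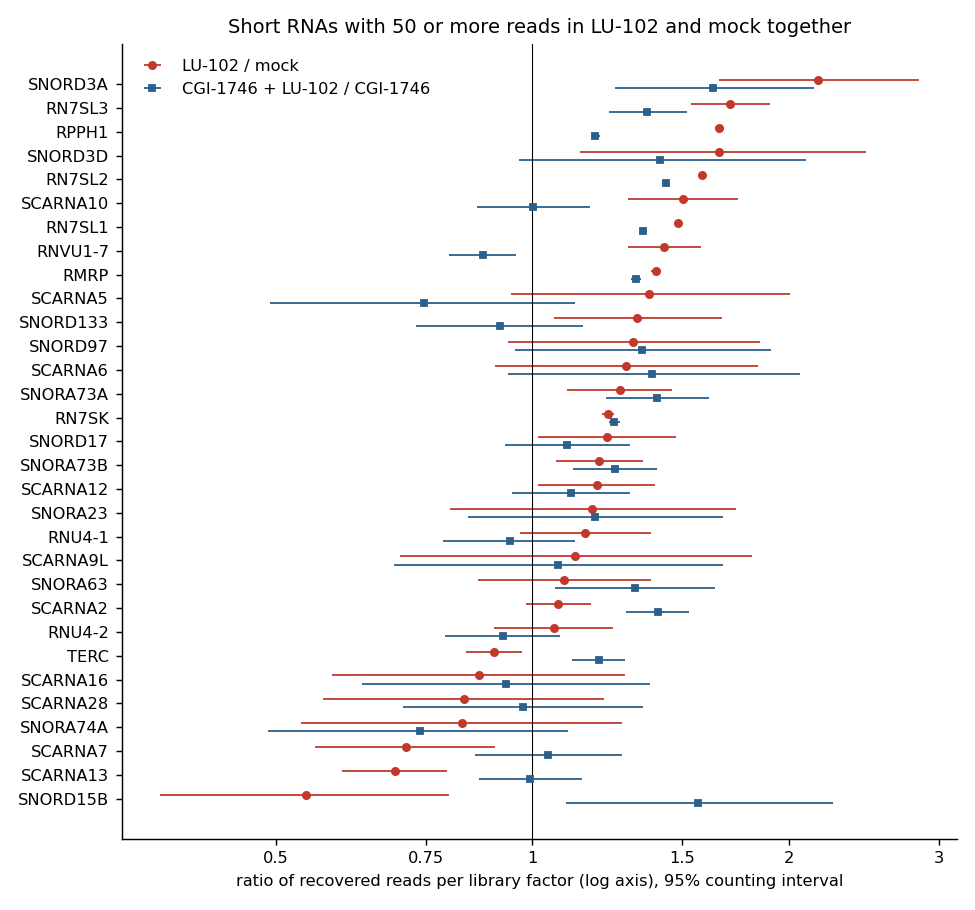
Ratio of recovered reads (x axis, log scale, with the 95% counting interval) for the 31 short RNAs with at least 50 reads in LU-102 and mock together. Red circles give LU-102 against mock and blue squares CGI-1746 + LU-102 against CGI-1746, 1 library each. SNORD3A, the 7SL RNAs, RPPH1 and RMRP lie above 1 in both pairs, and SNORD15B, TERC and RNVU1-7 lie on opposite sides of 1.

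Small nucleolar RNAs are mostly cut out of introns of other genes, so host and guest are transcribed together. In these data 24 short RNAs lay in introns of 19 host genes with a measured level. The hosts differed little, from -0.27 to 0.29, while the guests ranged from -0.84 to 0.83. The short RNA was higher than its host in 15 of 24 pairs, its counting interval lay above the host's ratio in 5 and below it in 2. RPS3, a ribosomal protein gene, had levels of 30.1 in mock and 29.1 with LU-102, while its guest SNORD15B was at 0.543 times mock and its guest SNORD15A had 1 read in mock and 3 with LU-102. EIF4A1, a translation initiation helicase, had 75.1 and 69.4, and its guests SNORD10, SNORA48 and SNORA67 had 18, 18 and 8 reads with LU-102 against 9, 14 and 10 in mock. NCAPD2, a condensin subunit, had 6.29 and 5.82, with SCARNA10 higher as given above.

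The 45S ribosomal RNA genes, which encode the precursor of 3 of the ribosomal RNAs, had a median difference of -0.15, with all 4 below 0. RNA45SN3 had 643 in mock and 597 with LU-102. RNA45SN1 and RNA45SN5 had identical levels, 577 and 501, and so count as 1 measurement. With CGI-1746 present all 4 were above 0, with a median of 0.36.

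The mRNA differences followed the base composition of the transcript. Across 3905 mRNA genes with a GENCODE 29 transcript, the difference and the transcript's GC content had a Pearson correlation of 0.67 and a Spearman correlation of 0.71. These are correlations across genes of the same 2 libraries, and genes are not independent replicates. In 5 equal groups by GC content the median difference was -0.17 in the lowest (32.5% to 42.6% GC), then -0.12, -0.06 and 0.02, and 0.09 in the highest (59.6% to 73.9%). The share of mRNAs above 0 was 2.56% in the lowest group and 79.3% in the highest. Of the 50 mRNAs at least 25% higher, 38 lay in the highest group, and of the 45 lower, 20 lay in the lowest. The Spearman correlation was 0.64 with the GC content of the 3′ untranslated region, -0.37 with its length, -0.26 with transcript length and 0.01 with the number of exons.

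Set against the mean of the other 3 libraries (bortezomib left out), the median of the highest less that of the lowest GC group was -0.21 for mock, 0.14 for LU-102, -0.05 for CGI-1746 and 0.12 for CGI-1746 + LU-102. Both libraries with LU-102 had a positive gradient and both without it a negative one, mock the steepest. Each library is part of the mean that the others were set against, so these gradients are not independent. In CGI-1746 + LU-102 against CGI-1746 the Spearman correlation with GC content was 0.46. It was 0.37 in CGI-1746 against mock, where neither library had LU-102. With 1 library each, a property of the library and an effect of treatment cannot be told apart. A linear adjustment of the mRNA differences for GC content, log2 transcript length and log2 level took up 45.5% of their variance, at 0.11 per 10 percentage points of GC, and lowered their SD from 0.144 to 0.107. After it, 33 mRNAs were at least 25% higher (0.845%) and 16 lower (0.41%). Adjusted values are given below beside each group. Over the 25 short RNAs with at least 50 reads in each library, the ratio and GC content had a Pearson correlation of 0.32 and a Spearman correlation of 0.30. RPPH1 has 64.6% GC and TERC 67.1%, with ratios of 1.66 and 0.901.

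**Figure D3:**
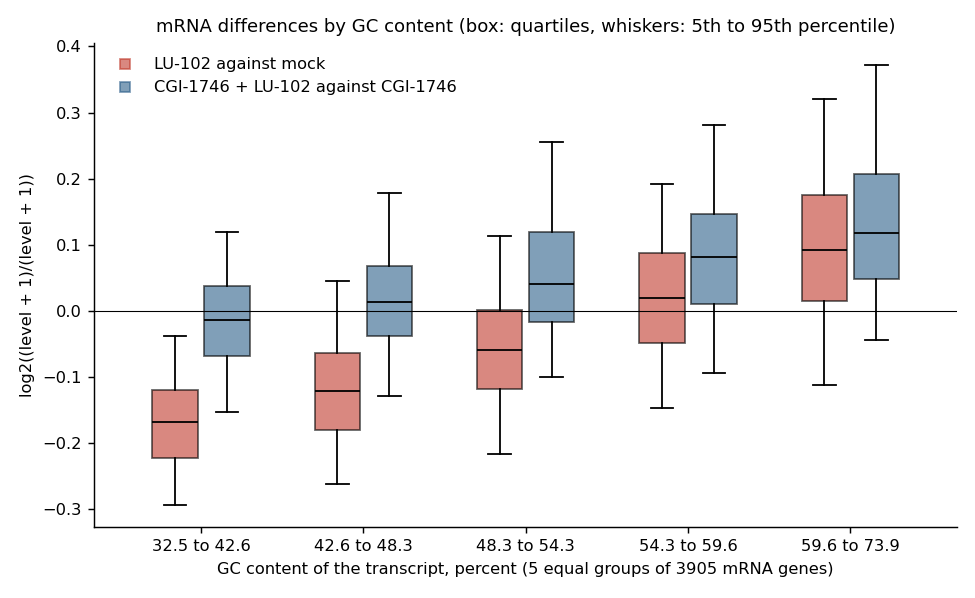
Differences of 3905 mRNA genes (y axis, log2 with a pseudocount of 1) in 5 equal groups of transcript GC content (x axis, percent), for LU-102 against mock (red) and CGI-1746 + LU-102 against CGI-1746 (blue). Boxes are quartiles with the median, and whiskers reach the 5th and 95th percentiles. The medians of LU-102 against mock go from -0.17 to 0.09 and those of the second pair from -0.01 to 0.12.

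The width of the mRNA differences can be set beside counting error. For genes with a mean level under 2, the SD of the log2 ratio without a pseudocount was 0.212 and the median counting SD, from rough reads, 0.224. For levels of 10 or more the SD was 0.175 and the counting SD 0.0756. Rough reads are the level times the GENCODE transcript length over the library factor, since the authors' own lengths are not known here.

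Among mRNAs that reached a level of 5 in at least 1 of the libraries, CCDC85B and MRPS34 were the highest with LU-102. CCDC85B, a coiled-coil protein gene known to repress transcription (chr11:65890673-65891635), had a level of 6.35 in mock and 10.3 with LU-102, a difference of 0.62. With CGI-1746 it had 7.39, and with both inhibitors 10.3. MRPS34, of the small subunit of the mitochondrial ribosome (chr16:1771895-1773134), had 7.14 in mock, 11.47 with LU-102, 8.54 with CGI-1746 and 11.01 with both. For both genes, among the libraries just given, those with LU-102 lay above those without it. With bortezomib, CCDC85B was at 22.4, above both libraries with LU-102, and MRPS34 at 5.77. The median difference of all mRNAs between bortezomib and mock was -0.99. The rough counting interval of the ratio was 1.33 to 1.98 for CCDC85B and 1.28 to 2.03 for MRPS34. Both genes were picked for their high ratio, which these intervals do not allow for. The other 3 mRNAs past 1.5-fold had levels under 5: BLID with 1.63 in mock and 3.28 with LU-102, MICOS13 with 1.27 and 2.48, and SMIM29 with 1.39 and 2.64.

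The rest of the 12 highest, with differences of 0.55 down to 0.44, fell into a few kinds. MT1F, a metallothionein, had 3.14 in mock and 5.08 with LU-102. GPS2, a subunit of the NCoR corepressor complex, had 3.32 and 5.29, and 3.97 without and 3.75 with LU-102 in the second pair. ATP5MC1, of the ring of the mitochondrial ATP synthase, had 4.43 and 6.74. MIF, a cytokine gene, had 27.7 and 39.3. TMUB1, a ubiquitin-like membrane protein gene, had 4.36 and 6.44, and GPAA1, of the enzyme that attaches GPI anchors, 6.48 and 9.15. The other 4 were the histone genes H2AC13, H4C12, H3C10 and H3C12. These 12 had a median GC content of 62.6% and a median transcript length of 989.5 bases, against 51.5% and 2861 bases for all mRNAs. After adjustment they had differences of 0.34 to 0.52. In the pair with CGI-1746, 11 of the 12 were above 0, with a median of 0.36, and GPS2 was at -0.06. Over all mRNAs 67.5% were above 0 in that pair, with a median of 0.04.

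TCEAL9, a gene of the elongation factor A-like family on the X chromosome (chrX:103356506-103358462), was the lowest mRNA at this level, with 6.37 in mock and 4.22 with LU-102, a difference of -0.50. It had 5.11 with CGI-1746 and 5.89 with both, so the second pair went the other way. SPANXB1, a sperm-protein gene of the cancer-testis kind, had 6.30 and 4.46, and its rough counting interval, 0.449 to 1.11, held 1. KLF10, a repressor induced by TGF-beta, had 5.61 and 4.002, and 6.53 and 5.59 in the second pair. SPCS3, a subunit of the signal peptidase, had 16.0 and 11.9, TMED7, a cargo receptor of the early secretory pathway, 13.8 and 10.2, and HSPA13, an HSP70 relative of the endoplasmic reticulum, 5.68 and 4.13. ARL6IP1, which shapes that organelle's membrane, had 32.03 and 24.4, MAP1LC3B, the autophagy protein LC3B, 8.36 and 6.21, and RPS26, a ribosomal protein, 10.8 and 7.94. SOWAHC, C6orf120 and SMIM15 completed the 12, at -0.41, -0.40 and -0.37.

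The 12 lowest had a median GC content of 43.6%, a median transcript length of 2788.5 bases and a median 3′ untranslated region of 1751.5 bases, against 110 bases in the 12 highest. Adjusted differences ranged from -0.37 to -0.15. The rough counting interval lay below 1 in 11 of the 12, and above 1 in all 12 of the highest. These genes were picked by the same levels that give the intervals, so intervals away from 1 were largely set by that choice. Of the 12 lowest, 6 were above 0 and 6 below in the pair with CGI-1746, where 67.5% of all mRNAs were above 0.

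**Figure D4:**
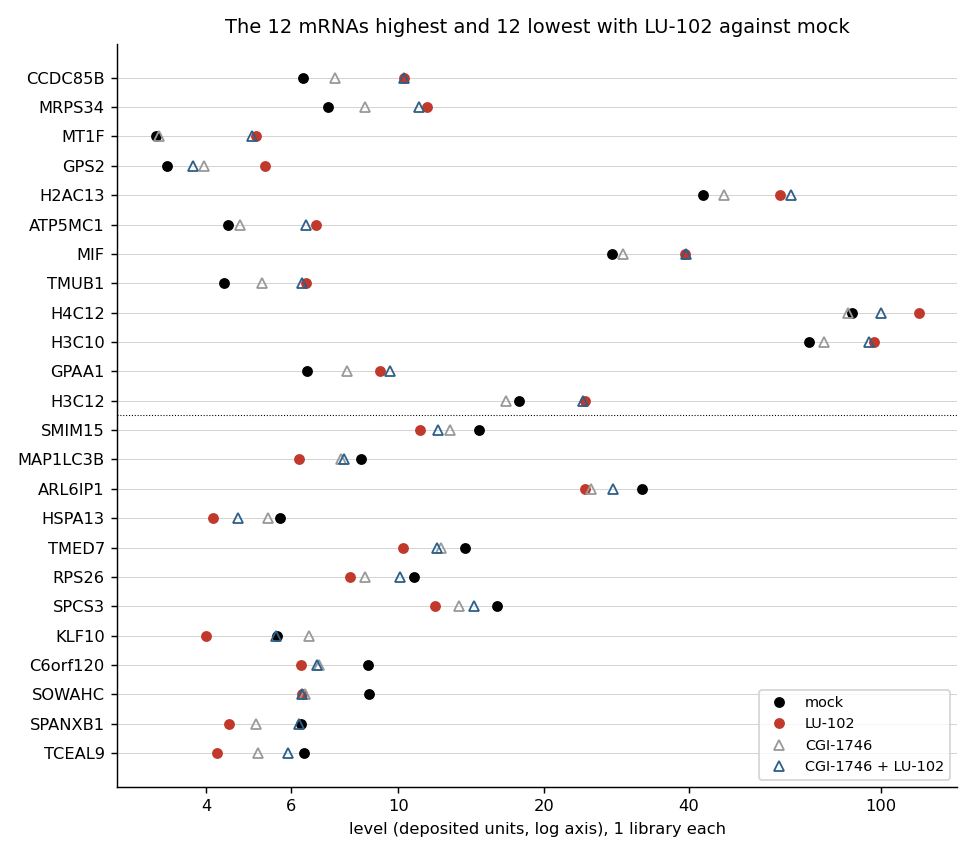
Levels (x axis, deposited units, log scale) of the 12 mRNAs with the highest and the 12 with the lowest difference of LU-102 against mock, in 4 libraries of 1 each. In the upper 12 the LU-102 library (red) lies above mock (black) by selection. CGI-1746 + LU-102 (blue triangles) lies above CGI-1746 (grey triangles) in 11 of them and in 6 of the lower 12.

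Replication-dependent histone genes, which package newly made DNA and whose mRNAs end in a stem-loop in place of a poly(A) tail, were mostly above 0. Of 42 genes, 35 were above 0, beside 35.1% of all mRNAs, and 10 were at least 25% higher, none lower, beside 1.28% and 1.15% of all mRNAs. Their median was 0.21 as deposited and 0.16 adjusted, with 34 above 0 after adjustment. H2AC13 (chr6:27808173-27808667) had levels of 42.8 in mock and 61.7 with LU-102, and 47.2 and 65.1 in the pair with CGI-1746. H3C10 (chr6:27810051-27810536) had 70.9 and 96.9, and 76.4 and 94.4. In both genes the libraries with LU-102 lay above those without it. H4C12 had 87.2 and 120.02, with 85.5 and 100.04 in the second pair, and H3C12 17.8 and 24.4, with 16.7 and 24.1. Adjusted values rest on the GC content and length of the longest matched GENCODE model. For H3C10 that model has 1237 bases, longer than the span given above. How far such models shift the adjusted values was not tested.

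The histone classes differed among themselves. H2A genes had a median of 0.21 with 12 of 12 above 0, H2B genes 0.22 with 11 of 12, and H3 genes 0.31 with 8 of 8. H4 genes had a median of -0.07 with 3 of 8 above 0, and the linker histones H1-2 and H1-4 had -0.18 and 0.06. H4C11 was the lowest, with 74.9 in mock and 61.7 with LU-102, and 63.5 and 97.9 in the second pair. H2AC18 and H2AC19, H3C14 and H3C15, and H4C14 and H4C15 are pairs with identical levels, so each pair counts as 1 measurement. The 7 histone variants with polyadenylated mRNAs, a set added after the values were seen, had a median of -0.17 and, adjusted, -0.07. In the pair with CGI-1746, 38 of the 42 were above 0 with a median of 0.21, but the adjusted median was 0.01. Of all mRNAs, 67.5% were above 0 there, with a median of 0.04.

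The stem-loop consensus (GGC, any base, CTTTT, any base, AG, any base, GCC), searched on the transcript's own strand, was found in 20 of 3905 mRNAs (0.512%) in GENCODE 29. It was in 19 of the 42 histone genes, and in 19 of the 22 whose transcript model holds at least 20 bases after the stop codon. The 19 had a median difference of 0.21, with 14 above 0. The sites of 3 histone genes with a difference above 0 are shown as examples of this ending, 5′ to 3′, with the stem-loop in capitals. They lie at chr6:27808642-27808667, chr6:27810511-27810536 and chr6:27133510-27133535, all on the plus strand of GRCh38. H2AC11, the third of them, had 263 in mock and 326 with LU-102.
H2AC13: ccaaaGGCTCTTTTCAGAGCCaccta
H3C10: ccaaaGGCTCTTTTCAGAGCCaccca
H2AC11: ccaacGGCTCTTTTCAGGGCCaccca

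Proteasome subunit genes stayed close to mock. None of the 12 measured 20S subunits and none of the 16 measured 19S subunits was 25% higher or 20% lower. Over all mRNAs these shares were 1.28% and 1.15%, so few or none would be past a step in lists of this size. The 20S list had a median of -0.03 with 5 of 12 above 0, and 0.09 adjusted with 8 of 12 above 0. Of the genes for catalytic subunits, PSMB5, the chymotrypsin-like site, had 6.57 in mock and 6.91 with LU-102. PSMB6, the caspase-like site, had 12.8 and 13.6, and PSMB8, of the immunoproteasome, 4.65 and 4.43. For all 3 the rough counting interval held 1, 0.828 to 1.33 for PSMB5, 0.869 to 1.31 for PSMB6 and 0.716 to 1.26 for PSMB8. At levels of 5 or more the largest differences were in PSMA7, 13.1 and 15.2, and PSMB4, 44.1 and 50.5, both non-catalytic. The member furthest from 0 was PSMB2, with 2.15 and 1.71. PSMB7, the subunit with the trypsin-like site, was not analysed here.

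The 19S list had a median of 0.02 with 9 of 16 above 0, and 0.05 adjusted with 12 of 16 above 0. ADRM1, a ubiquitin receptor of the 19S particle, was its highest member, with 7.72 in mock and 9.48 with LU-102. Activators and assembly factors had a median of -0.16, and -0.0038 adjusted. None of the 11 was past either step, beside 1.28% and 1.15% of all mRNAs. NFE2L1 itself had 16.2 in mock and 16.4 with LU-102, and SQSTM1, a ubiquitin-binding autophagy receptor, 8.81 and 8.97. In the pair with CGI-1746, 12 of 12 20S genes and 15 of 16 19S genes were above 0, with medians of 0.11 and 0.12, beside a median of 0.04 and 67.5% above 0 for all mRNAs. After adjustment 8 of 12 and 11 of 16 were above 0 there, with medians of 0.06 and 0.07, beside 49.6% of all mRNAs. With a level of at least 5 required, the 20S list stood 0.14 above the all-mRNA median in LU-102 against mock, in place of 0.03. With bortezomib, which shares the mock library, the same lists had medians of -1.54 and -1.62, beside -0.99 for all mRNAs, whose summed level was 12753 in that library and 37978 in mock.

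HSPA1A and HSPA1B, the stress-induced HSP70 genes, were the 2 of 11 HSP70 family genes that were at least 25% higher with LU-102. Over all mRNAs this share was 1.28%. Of the 11, HSPA13 alone was past the lower step, with a difference of -0.38. The 11 had a median of -0.05 with 4 above 0, and 0.07 adjusted with 7 above 0. HSPA1A had 23.95 in mock, 31.6 with LU-102, 52.7 with CGI-1746, 106.9 with both and 38.0 with bortezomib. HSPA1B had 62.2, 79.7, 136 and 284, and 99.5 with bortezomib. In level, the order for both genes was mock, LU-102, bortezomib, CGI-1746 and the combination. Bortezomib was 0.64 and 0.67 above mock in log2, where the median of all mRNAs was -0.99. LU-102 went with a difference of 0.39 and 0.35 against mock, 0.35 and 0.33 after adjustment, and 1.01 and 1.06 against CGI-1746. The rough counting intervals of the ratio to mock were 1.22 to 1.43 for HSPA1A and 1.22 to 1.35 for HSPA1B. These genes are near copies in their coding sequence, so reads could be split between them. HSPA8, the constitutive HSP70, had 429 in mock and 416 with LU-102. The 25 genes of the HSP40, HSP90, HSP60, small heat shock and BAG families had a median of -0.08. None was past either step, beside 1.28% and 1.15% of all mRNAs.

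Metallothioneins, small proteins that bind zinc and copper, were above 0 in 5 of 5 genes, with a median of 0.23 and 0.26 adjusted, and 2 of the 5, MT1F and MT2A, were at least 25% higher, beside 1.28% of all mRNAs. MT2A had 135 in mock and 179 with LU-102, with 168 and 261 in the pair with CGI-1746, where 4 of the 5 were above 0 and MT1A, at 1.61 and 1.45, was below. MT1X had 41.1 and 48.2, with 59.8 and 81.6, and MT1E 150 and 161, with 196 and 257. For MT2A and MT1X the level with LU-102 lay above mock in the first pair and above CGI-1746 in the second. NRF2 targets, which detoxify reactive compounds, had a median of -0.01. None of the 17 was past either step, beside 1.28% and 1.15% of all mRNAs. HMOX1, heme oxygenase 1, had 4.44 and 5.33, with a rough counting interval of the ratio of 0.953 to 1.52.

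Chaperones of the endoplasmic reticulum had a median of -0.14 with 16 of 18 below 0, beside -0.06 and 64.9% of all mRNAs. None was past either step, beside 1.28% and 1.15% of all mRNAs. HSPA5, the main HSP70 of this compartment, also called BiP, had 167 in mock and 137 with LU-102, and 168 and 172 in the second pair. Their median GC content was 47.2%, and after adjustment the median was -0.07 with 3 of 18 above 0. Signal recognition and translocon proteins, a list that also holds signal peptidase subunits, had a median of -0.18 as deposited, -0.04 adjusted and 0.08 in the second pair. Of these, 2 of 15, SRP9 and SPCS3, were at least 20% lower, beside 1.15% of all mRNAs. SRP9, which binds the 7SL RNA directly, had 8.64 in mock and 6.69 with LU-102, a difference of -0.33 that was -0.13 adjusted. In the second pair SRP9 was at 0.08, and the 7SL RNAs were higher in both pairs. Of ATF4 and CHOP targets, the genes of the integrated stress response, 1 of 17 was at least 25% higher and 1 lower. Over all mRNAs these shares were 1.28% and 1.15%. GADD45A, a growth arrest gene, had 7.05 in mock and 5.21 with LU-102. DDIT3, which encodes CHOP, had 3.31 and 3.17.

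Immediate early genes, among the first genes induced after growth factor signals, were above 0 in 1 of 20, with a median of -0.14. Their median GC content was 54.7%, above that of all mRNAs, and after adjustment the median was -0.12 with 0 of 20 above 0. Of the 20, KLF10 and FOSB were at least 20% lower, beside 1.15% of all mRNAs. FOSB had 1.31 in mock and 0.709 with LU-102. MCL1, an antiapoptotic gene, had 60.5 and 49.6. In the second pair 7 of 20 were above 0, with a median of -0.04, beside 67.5% and 0.04 for all mRNAs. ERK feedback genes, which dampen that kinase pathway, had a median of -0.14 and -0.10 adjusted. Of these, 1 of 10 was at least 20% lower, beside 1.15% of all mRNAs. This was DUSP6, an ERK phosphatase, with 12.4 in mock, 9.61 with LU-102, 9.31 with CGI-1746 and 7.59 with both. Its level with LU-102 was thus below that without it in each pair. SPRY2, a feedback inhibitor of receptor tyrosine kinases, had 7.07, 5.71, 5.88 and 4.79 in the same order.

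NF-kB linked cytokines and regulators had a median of -0.09 with 6 of 14 above 0, near the -0.06 of all mRNAs, and 3 of 14 were at least 20% lower, beside 1.15% of all mRNAs. CXCL8, interleukin 8, had 15.4 in mock and 11.8 with LU-102, a difference of -0.36 that was -0.12 after adjustment, its transcript having 33.4% GC. CSF2, which encodes GM-CSF, had 2.34 and 1.253, and CXCL1, a chemokine, 1.98 and 1.253. In the pair with CGI-1746 the 3 were at -0.17, -0.20 and -0.03. Genes of G2 and mitosis had a median of -0.17, with 22 of 27 below 0. TOP2A and ARL6IP1, 2 of the 27, were at least 20% lower, against 1.15% of all mRNAs. The adjusted median was -0.05, and TOP2A, the topoisomerase that untangles chromosomes, had 15.7 and 12.2. CSF2, CXCL1, FOSB, PSMB2, MT1A, BLID, MICOS13, SMIM29, H4C11, H2AC11 and other members with levels under 5 or outside the extremes were named after their values were seen.

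**Figure D5:**
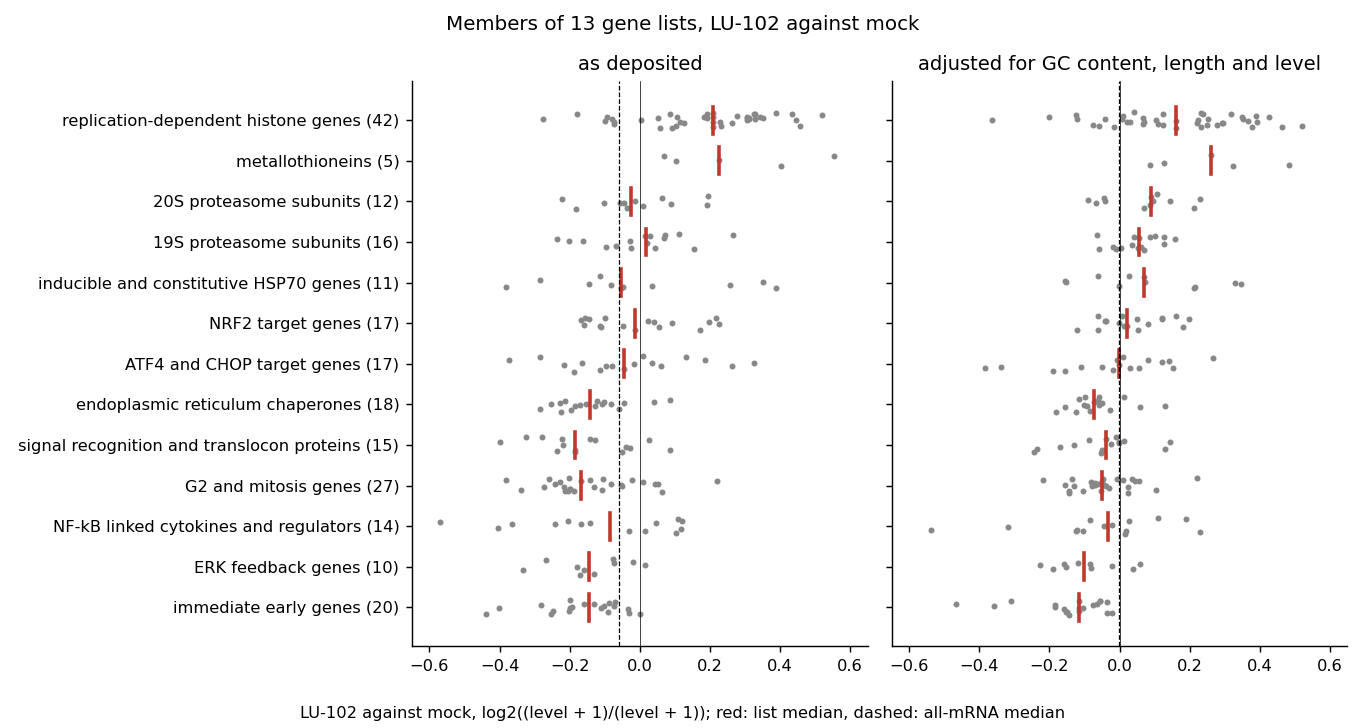
Differences of LU-102 against mock (x axis, log2 with a pseudocount of 1) for the members of 13 gene lists (grey points, number of genes in brackets) with each list's median (red) and the median of all mRNAs (dashed), as deposited (left) and adjusted for GC content, length and level (right). Histone genes and metallothioneins stand to the right in both panels, at 0.21 and 0.23 as deposited and 0.16 and 0.26 adjusted, and immediate early genes to the left, at -0.14 and -0.12.

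Other lists covered signalling and metabolism. TGF-beta targets had a median of -0.12 with 1 of 11 above 0, and -0.04 adjusted with 2 of 11. KLF10, 1 of the 11, was at least 20% lower, beside 1.15% of all mRNAs. YAP and TEAD targets, genes of the Hippo pathway, had -0.11 with 1 of 12, and -0.03 adjusted with 4 of 12. CCN2, a matrix protein gene of that list, had 309 in mock and 275 with LU-102. p53 targets had -0.09, and -0.02 adjusted, with 1 of 8, GADD45A, at least 20% lower, beside the same 1.15%. Interferon-induced genes had -0.02, and 0.06 adjusted, with 1 of 10 at least 25% higher, beside 1.28% of all mRNAs. This was IFITM2, an antiviral membrane protein, with 8.14 in mock and 10.51 with LU-102, and 8.09 and 9.81 in the second pair. Glycolytic enzyme genes had 0.0053, and 0.0086 adjusted, with GAPDH at 181 and 198.

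By symbol family, 37 families of at least 10 genes held 860 genes, and 36 had a median between -0.15 and 0.10. The exception was H, the histone symbols, at 0.19. RPS genes, of the small ribosomal subunit, had a median of 0.05 with 33 genes and RPL genes, of the large subunit, -0.05 with 45. After adjustment 35 of 37 families lay between -0.10 and 0.10, the exceptions being COX at 0.11 and H at 0.12. COX is mainly the genes of cytochrome c oxidase. DDX helicases and TAF genes, many of them subunits of the general transcription factor TFIID, were lowest as deposited, both at -0.14.

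The pair CGI-1746 + LU-102 against CGI-1746 gave a second set of values for the same inhibitor. Of 3909 mRNAs compared there, 106 were at least 25% higher (2.71%) and 8 at least 20% lower (0.205%). Of the 62 short RNAs, 25 were higher by this measure (40.3%) and 9 lower (14.5%). Of the 50 mRNAs at least 25% higher with LU-102 against mock, 18 were so in the second pair as well and 45 were above 0, with a median of 0.25. Of the 45 lower, 1 was at least 20% lower in the second pair and 23 were below 0, with a median of -0.01. Over all mRNAs the second pair had a median of 0.04, with 67.5% above 0. Across 3907 mRNAs the differences of both pairs had a Pearson correlation of 0.39 and a Spearman correlation of 0.38. After adjustment of both for GC content, length and level the correlations were 0.15 and 0.13. Among 1293 mRNAs with a level of at least 5 the unadjusted Pearson correlation was 0.46. These describe genes across 4 libraries that share no member between the pairs.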

How the data were processed

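The authors sequenced 5 total RNA libraries of the line, 1 per condition. The deposited table gives an expression signal per gene and library, named a least squares mean per the file headers. The submitters' processing notes name Partek and hg38. Aligner, annotation, versions and scaling: not given in the sources used here. Left out were 7 columns that repeat a library and the authors' ratio, p-value and FDR columns. In mock, level times length was a multiple of 0.5 reads, within 0.1 of a step, for 39 of 42 short RNAs under 100 reads, and with LU-102 for 39 of 41.

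Symbols were matched to RefSeq (4124 of 4202), and GC content and lengths came from GENCODE 29 (3905 of 3907 mRNAs). Differences were log2 ratios with a pseudocount of 1. Calculations used Python 3.11.15, pandas 2.3.3, numpy 2.4.6 and scipy 1.17.1, and the call and adjustment steps were tested on simulated data. Named mRNAs were the 12 highest and 12 lowest at a level of at least 5, named short RNAs those past 1.5-fold and the 8 highest and 8 lowest, and up to 4 members of each of 47 lists, 2 of which gave no value. The text prints some of these, from the lists it describes. The catalytic proteasome genes, HSPA1A, HSPA1B, HMOX1 and DDIT3 were named whatever their value. A further gene and sequence are not reported here. The members and lists were chosen with earlier results of these data known. Alternatives were pseudocounts of 0.5 and 5, a level of at least 5 or no filter, 2 scalings, the GC adjustment and raw reads.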

Additional observations from a re-analysis of the deposited data

Results flagged for a closer look

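Of 1446 genes that reached a level of 5 in any of the 4 libraries, 3 were at least 25% higher in 1 pair and at least 20% lower in the other, the pairs being LU-102 against mock and CGI-1746 + LU-102 against CGI-1746, and all 3 were short RNAs. SNORD15B was at -0.84 against mock and 0.62 with CGI-1746 present, and its counting intervals lay on opposite sides of 1. SNORA81, an H/ACA RNA in an intron of EIF4A2, was at -0.68 and 0.51, with 9 reads against 16 and 7 against 4. SCARNA5, a small Cajal body RNA, was at 0.42 and -0.39, with 71 reads against 51 and 44 against 59. The intervals of SNORA81 and SCARNA5 held 1 in both pairs. The differences between the pairs were not tested.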

How the results depend on the processing

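Each condition has 1 library, so no library could be left out. No paired analysis was possible because each group holds 1 library. With a pseudocount of 0.5, 26 genes were at least 1.5-fold higher and 6 lower, and 78 mRNAs were at least 25% higher and 79 at least 20% lower. With a pseudocount of 5, no gene was 2-fold higher (0 in place of 3), 4 genes were 1.5-fold higher and 1 lower, 16 mRNAs were 25% higher and 1 was 20% lower, and the short RNA median was 0.18, or 0.20 above that of mRNAs. That setting also put the H/ACA RNAs 0.14 and the other C/D RNAs 0.27 above the all-mRNA median. With a level of at least 5 required, 1 gene was 2-fold and 9 were 1.5-fold higher, 16 short RNAs were 25% higher, and 31 mRNAs were higher and 26 lower. Relative to the all-mRNA median, 20S subunits then stood at 0.14 and small Cajal body RNAs at 0.19. Fewer genes are compared under that filter. Median-of-ratios scaling, a shift of 0.07 in log2, gave 96 mRNAs higher and 19 lower. The adjustment for GC content, length and level gave 33 and 16, and put histone genes at 0.16 and epithelial genes at -0.088 relative to all mRNAs. The correlations between the pairs of 0.39 and 0.38 were 0.15 and 0.13 adjusted, and 0.14 and 0.13 adjusted without histone and metallothionein genes, both added after seeing the data. No called difference of a gene named by the rules above changed sign under any alternative run. Called genes outside those rules were not checked for sign. Of the values of named genes under alternatives, 48 moved by more than their counting interval and 1216 did not, and 29 of the 48 were under the adjustment. Ratios of raw reads lay outside the counting interval for RPPH1, RN7SL2, RN7SL1 and RMRP, at 1.68, 1.61, 1.51 and 1.42, since raw reads leave out the library factor. The cause of the other shifts was not tested. Depth limits short RNAs with few reads, such as SNORA71D with 1 and 7, and mRNAs at levels under 2, whose median counting SD was 0.224 in log2.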
